A study of Mus musculus with 6 samples.

Results

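The expression of 36 peroxisomal genes was examined in BAT of sST2-KO and WT mice. The set was chosen by gene symbol from general knowledge of the organelle. As with the gene lists used below, earlier results of these data were known when it was chosen. All 36 symbols were found among the 35976 rows of the count table. The set holds 13 peroxins, the proteins that build and divide peroxisomes, and 23 genes for lipid enzymes, acyl-CoA transporters and a matrix protease. RNA-seq was performed on BAT of male C57BL/6J mice that were 10 weeks old, with 3 WT and 3 sST2-KO libraries, and p-values measure the spread between these libraries. The sST2-KO mice were homozygous for a CRISPR/Cas9 deletion of an intronic stretch of Il1rl1, made to remove sST2, the soluble form of the receptor for IL33, in every tissue. The WT mice came from the same heterozygous crosses. In both groups BAT had been surgically denervated, and cold exposure at 10 °C lasted 8 h after a stay at thermoneutrality. The design therefore compares genotypes within denervated, cold-exposed BAT, and it holds no innervated and no warm group.

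Peroxisomes are single-membrane organelles that shorten very-long-chain and branched fatty acids, start the synthesis of ether lipids such as plasmalogens and contain hydrogen peroxide. Membrane proteins are inserted with the help of Pex3, Pex16 and Pex19. Folded matrix enzymes are then imported by the receptors Pex5 and Pex7 through a docking complex around Pex13 and Pex14, after which a ubiquitin ligase and an ATPase motor recycle the receptors. BAT is rich in peroxisomes, which become more numerous in the cold, and the acyl-CoAs they shorten are passed on to mitochondria as carnitine esters.

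The libraries held between 8159442 and 12874809 counts on genes. Levels are given as CPM, the counts relative to the TMM-scaled size of the library, and differences as log2 fold changes of sST2-KO against WT with their standard error (SE). Genes with an adjusted p under 0.05 were called, where p came from the quasi-likelihood test of edgeR and was adjusted by Benjamini-Hochberg over all 14542 genes tested. Where 3 values of a group are listed, they are those of replicates 1, 2 and 3 in this order. The whole-gene counts of Il1rl1, at 19, 19 and 6 in WT and 55, 69 and 142 in sST2-KO, do not separate sST2 from the membrane-bound receptor, and so they do not check the genotype. The tissue label was met in WT, where Ucp1, the uncoupling protein of brown adipocytes, stood at 5229, 6460.5 and 10522 CPM. Ucp1 was at 160.4, 1042 and 153 CPM in sST2-KO, and Cidea, a lipid droplet protein of brown adipocytes, fell from 1604, 1914 and 2765 to 207, 347 and 52.7 CPM.

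Some libraries held genes of other tissues. WT replicate 2 held genes of liver, with Alb (albumin) at 3192 CPM against 23.7 and 3.699 CPM in the other WT libraries. Summed over 12 skeletal muscle genes, the level was 1309, 22.99 and 8.38 CPM in WT and 6861, 3713 and 15876 CPM in sST2-KO. Macrophage genes stood highest in sST2-KO replicate 3, at 6341 CPM over 10 genes against 830.1 to 1599.7 CPM in the other 5 libraries. Fibroblast genes, 6 in number, summed to 6049, 1919.8 and 2171 CPM in WT and 1127, 2213 and 10006 CPM in sST2-KO, so WT replicate 1 and sST2-KO replicate 3 stood above the rest. In sST2-KO replicate 3, mitochondrially encoded genes took 6.80% of counts against 11.8% to 16.6% in the other libraries, and the 10 most abundant genes 8.87% against 14.6% to 19.3%. Its chi-square distance per degree of freedom to the other sST2-KO libraries was 104 and 89.6, against 40.7 between those. In bulk tissue, fewer brown adipocytes and less RNA of a gene per adipocyte cannot be told apart.

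Most of the peroxisomal genes were lower in BAT of sST2-KO mice. All 36 passed the filter on low counts, and 23 of them (63.9%) were called lower in sST2-KO, whereas 9.10% of all genes tested were called lower. None was called higher, against 10.5% of all genes tested. The median log2 fold change was -1.26 over the 36 genes and 0.03 over all genes tested. The sST2-KO libraries were all below the lowest WT library in 28 of the 36 genes (77.8%), a pattern seen in 19.7% of all genes tested. They were all above the highest WT library in 3 genes, which held for 21.8% of all genes tested. With a fold change above 2 also required, 22 of the 36 genes remained called lower, against 7.10% of all genes tested. At an unadjusted p under 0.05 in edgeR, 27 genes were lower and 2 were higher, against 16.7% and 19.6% of all genes tested. DESeq2 called 26 lower and 0 higher, against 10.9% and 12.2% of the 16959 genes to which it gave an adjusted p. By qPCR under the same denervation and cold, the study reported unaltered expression of genes for heat production without Ucp1, including the peroxisome pathway. That qPCR used more mice per group than the RNA-seq here and was scaled to an internal control gene. From its RNA-seq, the study linked the genes lower in sST2-KO mainly to heat production. The study's text does not name the genes measured by qPCR, so they were not matched to the 36 genes here.

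**Figure D1:**
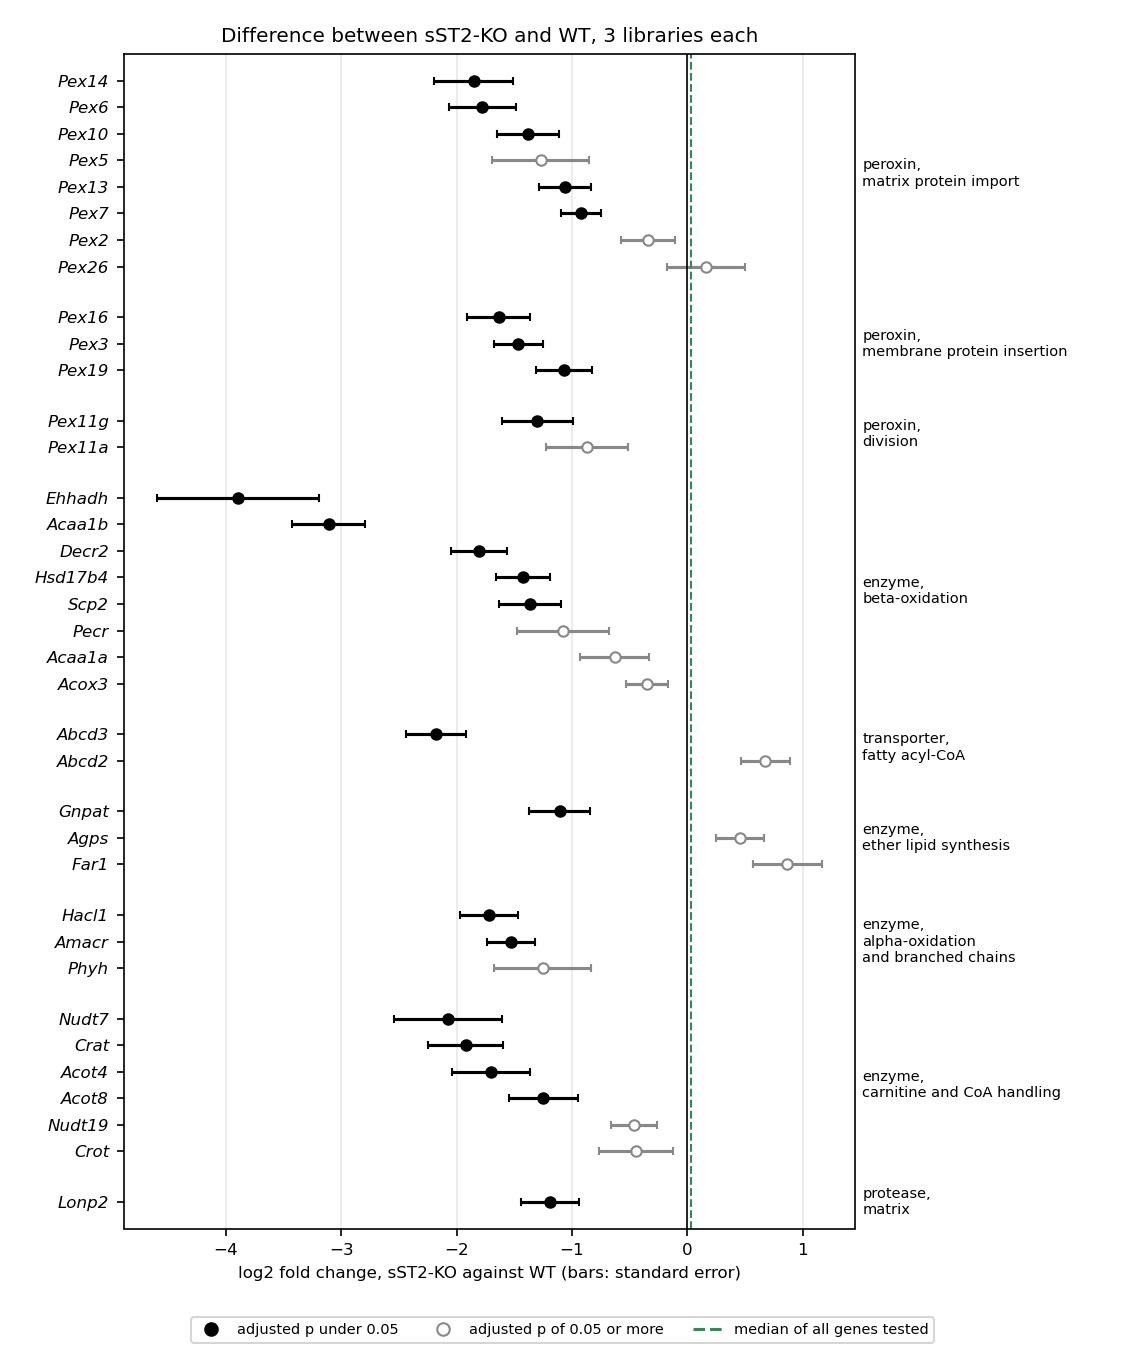
Log2 fold change of each of the 36 genes in sST2-KO against WT BAT (horizontal axis, points with SE bars), grouped by role. Filled points mark the 23 genes with an adjusted p under 0.05, all of them to the left of 0, and the dashed line is the median of all genes tested at 0.03.

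These calls rested on WT replicate 3 more than on any other library. This library had the highest WT level in 25 of the 36 genes and the highest Ucp1 of the 6 libraries. Without it, only Acaa1b kept its call, with an adjusted p of 0.041, and the other 22 genes had adjusted p values of 0.052 to 0.11. Over all genes tested, calls in either direction fell from 2847 of 14542 with all libraries to 58 of 15085 in that fit. The direction did not turn, since the 23 genes kept log2 fold changes of -3.19 to -0.86. In that fit 25 of the 36 were lower at an unadjusted p under 0.05 in edgeR. The share of all genes at that level was not computed for this fit, so the count has no background to be read against. Without WT replicate 2, the library with the liver genes, 12 genes were called lower, namely Pex3, Pex6, Pex16, Ehhadh, Hsd17b4, Acaa1b, Abcd3, Amacr, Crat, Decr2, Hacl1 and Nudt7. Calls over all genes tested fell as well in that fit, to 876 of 14846. Without sST2-KO replicate 3, the lowest sST2-KO library in 29 of the 36 genes, 18 remained called, and Pex11g, Pex13, Pex19, Gnpat and Acot8 lost their calls. Here calls over all genes tested fell to 1416 of 14882. Leaving out WT replicate 1, sST2-KO replicate 1 or sST2-KO replicate 2 left 23, 22 and 21 genes called lower. Pex5, not called with all libraries, is among those called without WT replicate 1 and without sST2-KO replicate 2. Without WT replicate 1, Nudt7 lost its call and Abcd2 and Far1 were called higher. Acot8 lost its call without either of sST2-KO replicates 1 and 2, and so did Pex11g and Pex19 without sST2-KO replicate 2.

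**Figure D2:**
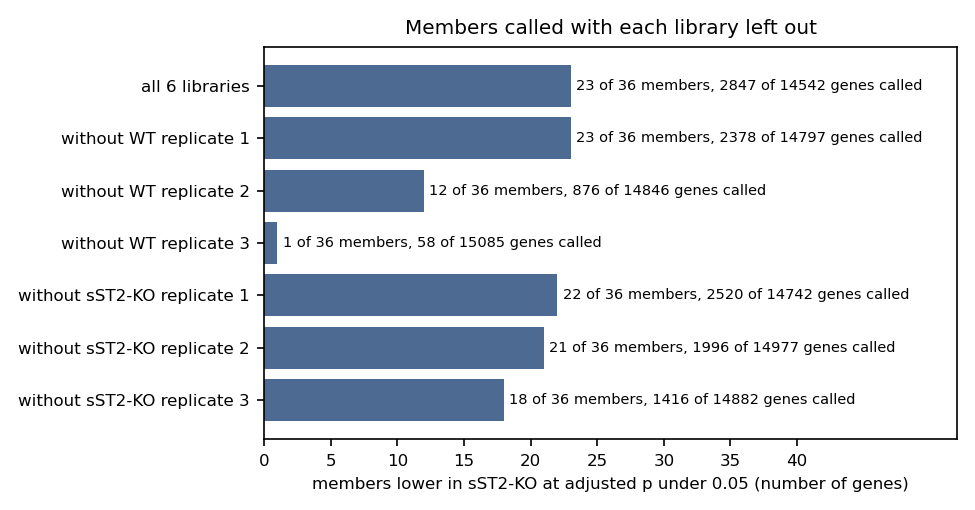
Number of the 36 genes called lower in sST2-KO with all 6 libraries and after removal of single libraries (bars, from 0), with the calls over all genes tested beside each bar. The bars run from 23 with all libraries to 1 without WT replicate 3.

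The medians of peroxins and enzymes were close to each other. Of the 13 peroxins, 9 were called lower (69.2%, against 9.10% of all genes tested). The log2 fold changes of the 13 had a median of -1.27 and a range from -1.85 to 0.16. Of the 23 enzymes, transporters and protease, 14 were called lower (60.9%), with a median of -1.25 and a wider range from -3.89 to 0.86. The counts by role in the paragraphs below stand against the same 9.10%. Every sST2-KO library was below every WT library in 19.7% of all genes tested, and above in 21.8%. The summed level of the peroxins was 1001, 1413 and 1495 CPM in WT and 556, 645 and 407 CPM in sST2-KO. The summed level of the other 23 genes was 3629, 4294 and 5712 CPM in WT and 1850.1, 1729.7 and 1124 CPM in sST2-KO. For both sums the sST2-KO libraries lay below all WT libraries, and sST2-KO replicate 3 was the lowest. The mean log2 CPM of the 23 genes exceeded that of the peroxins by 0.68, 0.59 and 0.60 in WT and by 0.59, 0.50 and 0.46 in sST2-KO. The groups nearly met in this distance, at 0.589 in WT replicate 2 and 0.586 in sST2-KO replicate 1. The ratio of the sums, 3.63, 3.04 and 3.82 in WT and 3.33, 2.68 and 2.76 in sST2-KO, overlapped between the groups. As descriptions of the chosen genes neither was tested.

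The genes covered a wide range of levels. Per kilobase of annotated exon, the mean WT level was highest for Ehhadh, at 244 ± 178 CPM per kb (SD, n = 3), followed by Scp2 at 106 ± 19.8, Phyh at 92.3 ± 19.04 and Crat at 75.9 ± 13.5 CPM per kb. These 4 genes took this order in each WT library, with Scp2 and Phyh nearly level in WT replicate 2 at 99.4 and 98.7 CPM per kb. The highest peroxin was Pex5 at 50.9 ± 22.4 CPM per kb, and the lowest of all 36 genes was Pex26 at 0.718 ± 0.229 CPM per kb. In sST2-KO the mean level of Ehhadh was 16.41 CPM per kb, below those of Scp2 at 41.28 and Phyh at 38.68 CPM per kb.

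**Figure D3:**
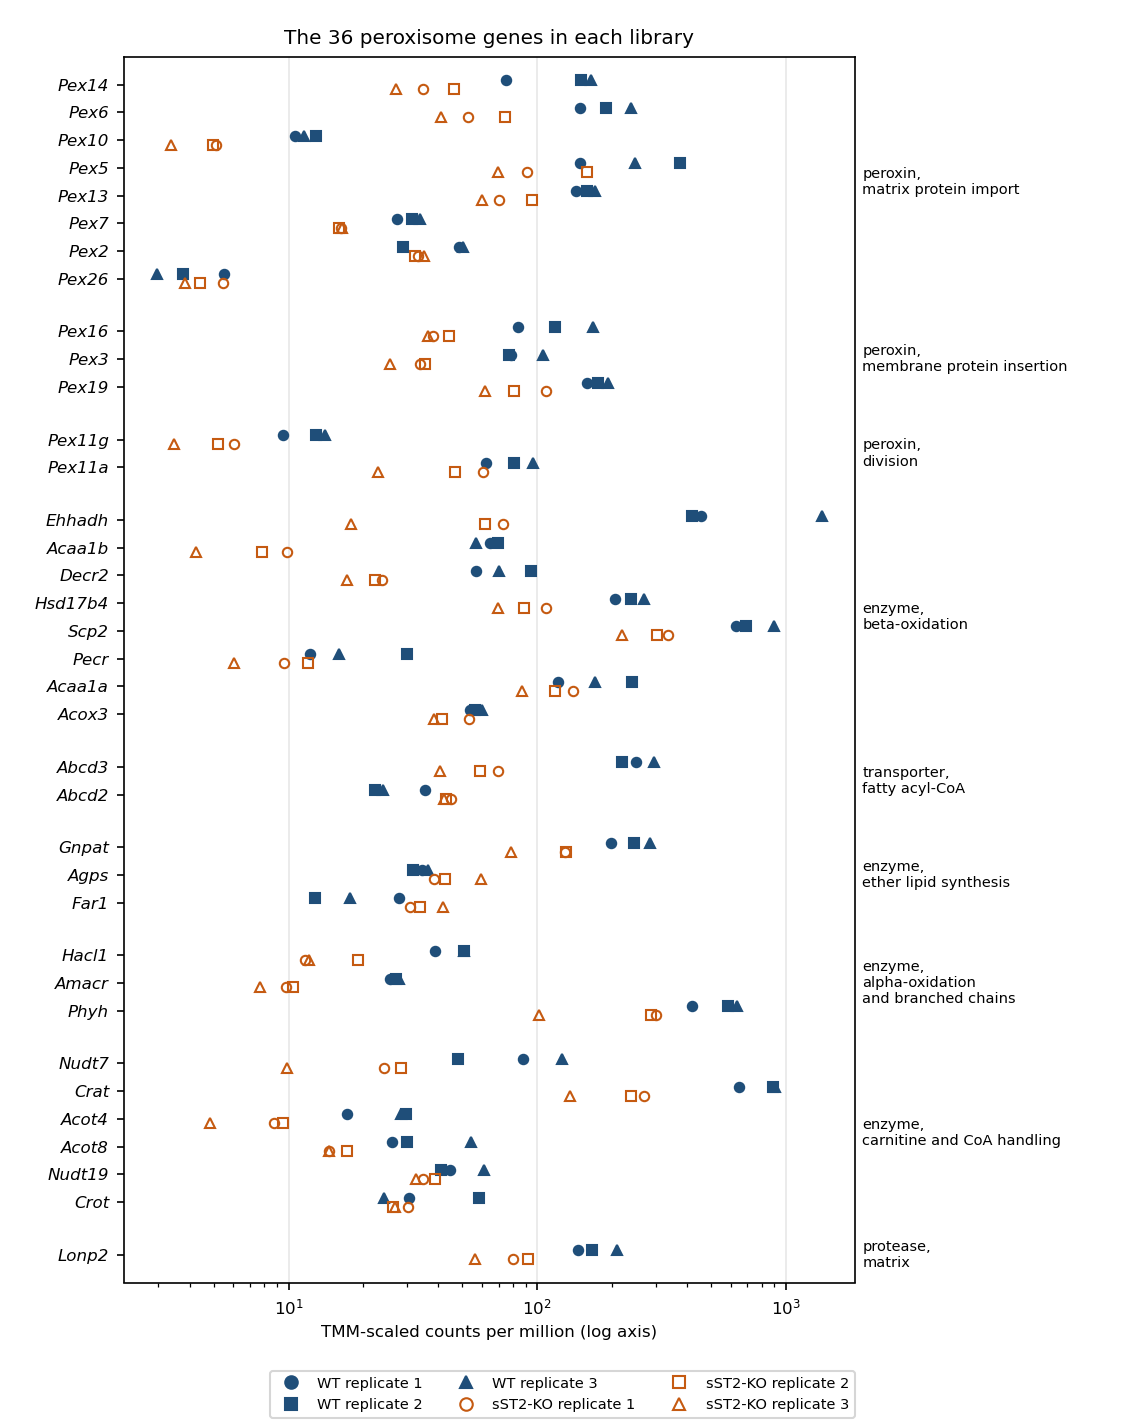
TMM-scaled CPM (log axis) of each of the 36 genes in the 3 WT libraries (filled) and the 3 sST2-KO libraries (open), with marker shapes for the replicate numbers and genes grouped by role. In 28 genes all open markers lie to the left of all filled ones, and in Abcd2, Agps and Far1 they lie to the right.

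Among the peroxins, the 3 factors that insert membrane proteins were all called lower. Pex26, which was not called, was moved from this group to the import peroxins after the values were seen, to match its role. Pex3, the membrane anchor that receives cargo, was at 78.5, 77.2 and 106 CPM in WT and 33.9, 35.2 and 25.6 CPM in sST2-KO, a log2 fold change of -1.47 ± 0.21 (SE, adjusted p = 0.014). Pex16, which recruits Pex3 to the membrane, was at 83.5, 118 and 168 CPM in WT and 38.3, 44.3 and 36.3 CPM in sST2-KO, a log2 fold change of -1.64 ± 0.27 (SE, adjusted p = 0.015). Pex19, the soluble chaperone that carries new membrane proteins to Pex3, was at 159, 176 and 192 CPM in WT and 109, 80.7 and 61.7 CPM in sST2-KO, a log2 fold change of -1.07 ± 0.24 (SE, adjusted p = 0.026). The groups did not overlap in any of the 3 genes, and Pex3 and Pex16 fell to about 31.6 and 39.6 CPM on average.

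Of the 8 peroxins of matrix protein import, 5 were called lower. Pex14, at the core of the docking complex, fell most, from 75.2, 149.9 and 165 CPM in WT to 34.6, 46.4 and 27.2 CPM in sST2-KO, a log2 fold change of -1.85 ± 0.34 (SE, adjusted p = 0.017). Its partner Pex13 fell from 143, 158 and 170.4 to 70.5, 95.8 and 60.04 CPM, a log2 fold change of -1.06 ± 0.22 (SE, adjusted p = 0.021). In both genes the lowest WT library was replicate 1 and the lowest sST2-KO library was replicate 3. Pex6, a subunit of the ATPase motor that pulls receptors out of the membrane, was at 148, 189 and 238 CPM in WT and 52.5, 74.4 and 41.2 CPM in sST2-KO, a log2 fold change of -1.78 ± 0.29 (SE, adjusted p = 0.015). Pex10, a subunit of the ubiquitin ligase, was at 10.6, 12.9 and 11.6 CPM in WT and 5.09, 4.98 and 3.36 CPM in sST2-KO, a log2 fold change of -1.38 ± 0.27 (SE, adjusted p = 0.018). Both were thus lower in each sST2-KO library than in any WT library, although Pex10 was read at a low level throughout. Pex7, the receptor for enzymes with the second type of targeting signal, was at 27.2, 31.4 and 33.7 CPM in WT and 16.3, 15.9 and 16.4 CPM in sST2-KO, a log2 fold change of -0.92 ± 0.18 (SE, adjusted p = 0.017). It had the smallest fall of the called peroxins and a narrow spread among sST2-KO libraries.

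The other 3 import peroxins were not called. Pex5, the receptor for most matrix enzymes, was at 149, 374 and 247 CPM in WT and 90.9, 159 and 69.7 CPM in sST2-KO, a log2 fold change of -1.27 ± 0.42 (SE, adjusted p = 0.070). The groups overlapped, since sST2-KO replicate 2 lay above WT replicate 1, and the highest value came from WT replicate 2, which holds the liver genes. DESeq2 gave Pex5 an adjusted p of 0.015, and in edgeR it was 0.049 without WT replicate 1 and 0.045 without sST2-KO replicate 2. Pex2, another ubiquitin ligase subunit, had a log2 fold change of -0.34 ± 0.24 (SE), and its WT and sST2-KO libraries overlapped. Pex26, the membrane anchor of the ATPase motor, had a log2 fold change of 0.16 ± 0.34 (SE) at levels of 2.96 to 5.504 CPM, and its groups overlapped. The import machinery therefore held both genes that fell more than 3-fold, Pex14 and Pex6, and genes without a detectable difference.

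The remaining peroxins belong to the Pex11 family, which elongates the membrane before division. Pex11g was at 9.52, 12.9 and 14.1 CPM in WT and 6.06, 5.22 and 3.46 CPM in sST2-KO, a log2 fold change of -1.30 ± 0.31 (SE, adjusted p = 0.028). Pex11a, which is induced with peroxisome number, had a log2 fold change of -0.87 ± 0.35 (SE, adjusted p = 0.12). In Pex11a every sST2-KO library was also below every WT library, but sST2-KO replicate 1 at 60.7 CPM and WT replicate 1 at 62.4 CPM nearly met.

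Peroxisomal beta-oxidation held the largest falls. Ehhadh, the L-bifunctional enzyme that hydrates and dehydrogenates enoyl-CoAs, was at 454, 421 and 1395 CPM in WT and 72.8, 61.9 and 17.9 CPM in sST2-KO, a log2 fold change of -3.89 ± 0.70 (SE, adjusted p = 0.016), or 14.9-fold lower. WT replicate 3 stood far above the other WT libraries, and sST2-KO replicate 3 far below the other sST2-KO libraries, and Ehhadh had the largest SE of the 36 genes. Without WT replicate 3 its log2 fold change was -3.11, with an adjusted p of 0.061. Hsd17b4, the D-bifunctional enzyme for the same steps on very-long-chain and branched substrates, was at 206, 239 and 269.5 CPM in WT and 108, 88.4 and 69.5 CPM in sST2-KO, a log2 fold change of -1.42 ± 0.23 (SE, adjusted p = 0.015). It fell less than Ehhadh, and its libraries lay closer together within each group. Scp2, which encodes sterol carrier protein and a thiolase for branched chains, was at 630.1, 689.9 and 892 CPM in WT and 337, 302 and 219.8 CPM in sST2-KO, a log2 fold change of -1.36 ± 0.27 (SE, adjusted p = 0.018). Decr2, the dienoyl-CoA reductase for unsaturated chains, was at 56.8, 94.1 and 70.3 CPM in WT and 23.7, 22.3 and 17.2 CPM in sST2-KO, a log2 fold change of -1.81 ± 0.24 (SE, adjusted p = 0.012). In Decr2 WT replicate 2 was the highest library, and without it the log2 fold change was -1.59, with an adjusted p of 0.039.

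Pecr, a peroxisomal enoyl-CoA reductase, was at 12.2, 29.9 and 16.03 CPM in WT and 9.55, 11.99 and 6.02 CPM in sST2-KO, a log2 fold change of -1.08 ± 0.40 (SE, adjusted p = 0.097). The groups did not overlap, but WT replicate 2 was the highest library, and without it the log2 fold change was -0.62. The part of the liver genes' source in the levels of Pecr, Pex5 and Decr2 was not tested. Acox3, an oxidase that opens the cycle on branched chains, had a log2 fold change of -0.35 ± 0.18 (SE) and was not called. Its sST2-KO libraries were below its WT libraries by a narrow margin, with 53.2 CPM in sST2-KO replicate 1 and 53.6 CPM in WT replicate 1.

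Of the paralogous thiolases Acaa1a and Acaa1b, which carry out the last step of the cycle, only Acaa1b was called lower. Acaa1b was at 64.4, 69.7 and 56.7 CPM in WT and 9.896, 7.83 and 4.25 CPM in sST2-KO, a log2 fold change of -3.11 ± 0.31 (SE, adjusted p = 0.0090), which is 8.63-fold lower. Its WT libraries lay close together, and it is the only one of the 36 genes whose call held with each library left out in turn. Acaa1a was at 121, 241 and 171 CPM in WT and 139.9, 118 and 87.1 CPM in sST2-KO, a log2 fold change of -0.63 ± 0.30 (SE, adjusted p = 0.17). Its groups overlapped, since sST2-KO replicate 1 exceeded WT replicate 1, and its highest value was again in WT replicate 2. The count of Acaa1b per count of Acaa1a was 0.532, 0.289 and 0.331 in WT and 0.0708, 0.0666 and 0.0488 in sST2-KO, without overlap. This pair was singled out after the values were seen, so the ratio was not tested. Of exact sequence, 3.22% of the 150-base windows of Acaa1b transcripts and 1.88% of those of Acaa1a occur in the other gene, and the mapping of reads between the paralogs was not tested. On the opposite strand, exons of Acaa1a overlap those of Myd88 over 628 bases, and Myd88, an adaptor of Toll-like and IL-1 family receptors, rose from 61.9, 48.8 and 40.8 to 78.3, 101 and 100.1 CPM (log2 fold change 0.88 ± 0.22 SE, adjusted p = 0.031). The library kit does not mark strand, so reads within that overlap cannot be assigned to either gene, and their part in the level of Acaa1a was not tested.

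Promoter sequences are shown for the thiolase pair, because only 1 of them was called, for Ehhadh, which fell most, for Pex13, the only one of the 30 genes found in the promoter table whose window holds a cAMP response element, and for Agps, which did not fall. Each run is the 250 bases before the annotated start in RefSeq (GRCm38.p6), 5′ to 3′ on the gene's strand, and was found once on its chromosome in GRCm39, at chr9:119170110-119170359 (plus strand) for Acaa1a, chr9:118986162-118986411 (minus) for Acaa1b, chr16:21606585-21606834 (minus) for Ehhadh, chr11:23615884-23616133 (minus) for Pex13 and chr2:75662271-75662520 (plus) for Agps. Capitals mark GC boxes, spelled GGGCGG, the box that CCAAT both names and spells, and cAMP response elements, spelled TGACGTCA, on either strand.
Acaa1a: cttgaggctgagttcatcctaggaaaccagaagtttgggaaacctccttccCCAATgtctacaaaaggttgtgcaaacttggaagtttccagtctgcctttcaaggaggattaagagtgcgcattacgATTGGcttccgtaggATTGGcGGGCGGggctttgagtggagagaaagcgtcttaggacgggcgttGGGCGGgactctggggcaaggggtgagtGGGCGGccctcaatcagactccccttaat
Acaa1b: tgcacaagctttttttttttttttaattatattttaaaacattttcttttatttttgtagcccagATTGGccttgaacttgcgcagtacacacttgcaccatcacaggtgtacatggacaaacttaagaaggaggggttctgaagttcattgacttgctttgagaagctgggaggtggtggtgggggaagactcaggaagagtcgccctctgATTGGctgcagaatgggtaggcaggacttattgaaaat
Ehhadh: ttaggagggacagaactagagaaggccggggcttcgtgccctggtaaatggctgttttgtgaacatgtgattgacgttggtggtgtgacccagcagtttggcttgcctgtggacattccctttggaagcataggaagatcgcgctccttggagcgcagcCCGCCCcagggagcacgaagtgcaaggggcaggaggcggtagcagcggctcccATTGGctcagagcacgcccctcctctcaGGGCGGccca
Pex13: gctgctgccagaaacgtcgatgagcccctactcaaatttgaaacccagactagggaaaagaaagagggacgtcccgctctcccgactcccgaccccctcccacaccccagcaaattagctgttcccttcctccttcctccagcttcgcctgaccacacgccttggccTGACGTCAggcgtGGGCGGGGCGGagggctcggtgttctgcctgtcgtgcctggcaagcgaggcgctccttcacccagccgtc
Agps: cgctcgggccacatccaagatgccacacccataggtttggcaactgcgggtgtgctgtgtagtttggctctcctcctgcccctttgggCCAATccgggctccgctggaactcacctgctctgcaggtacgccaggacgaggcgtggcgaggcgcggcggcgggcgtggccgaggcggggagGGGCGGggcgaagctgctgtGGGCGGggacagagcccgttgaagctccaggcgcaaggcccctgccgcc

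Both thiolase promoters held CCAAT boxes, and only that of Acaa1a held GC boxes. Acaa1a holds GC boxes that begin 101, 57 and 29 bases before the start, and Acaa1b holds none in this window, with a GC content of 41.6% against 53.6% in Acaa1a. In Pex13 the cAMP response element, the palindrome bound by CREB, begins 83 bases before the start and is followed by overlapping GC boxes. Promoters were found in the RefSeq table for 30 of the 36 genes, with 36 start sites between them. A GC box occurred in 23 of these 36 promoters (63.9%), against 32.7% of 32851 mouse promoters of the same length, and a CCAAT box in 14 (38.9%), against 33.8%. The cAMP response element occurred in 1 of them, against 1.55% of all promoters. A pair of AGGTCA repeats spaced by 1 base, the element bound by PPAR and RXR, was found in 0 of the 36 and in 0.0335% of all promoters, and the extended element of estrogen-related receptors (TCAAGGTCA) in 0 and in 0.387%. All 5 motifs were searched on both strands, GC boxes can overlap one another, and the comparison was not matched for base composition. A match describes these letters only. In this exact spelling the AGGTCA pair and TCAAGGTCA are so rare that their absence from 36 promoters says little about these genes.

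Of the acyl-CoA transporters, Abcd3 was called lower and Abcd2 was not called. Abcd3, an ABC transporter that brings branched-chain and dicarboxylic acyl-CoAs into the peroxisome, was at 251, 219.9 and 295 CPM in WT and 69.6, 58.98 and 40.5 CPM in sST2-KO, a log2 fold change of -2.18 ± 0.26 (SE, adjusted p = 0.010). Abcd2, a related transporter of very-long-chain and polyunsaturated acyl-CoAs that is abundant in adipose tissue, was at 35.3, 22.2 and 23.9 CPM in WT and 45.02, 43.1 and 42.1 CPM in sST2-KO, a log2 fold change of 0.68 ± 0.21 (SE, adjusted p = 0.063). Every sST2-KO library was above every WT library for Abcd2, although the gene missed the threshold. Abcd2 was called higher when libraries were scaled by total counts (adjusted p = 0.041) and when WT replicate 1 was left out (adjusted p = 0.030). The count of Abcd2 per count of Abcd3 was 0.141, 0.101 and 0.0811 in WT and 0.647, 0.7304 and 1.04 in sST2-KO. Abcd3 was the more abundant of the pair in all WT libraries, and in sST2-KO replicate 3 the counts of the pair were about equal.

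In ether lipid synthesis, 1 of 3 genes was called lower. Gnpat, the acyltransferase of the first step, was at 199, 245 and 284 CPM in WT and 129, 130.4 and 78.4 CPM in sST2-KO, a log2 fold change of -1.11 ± 0.27 (SE, adjusted p = 0.029). Agps, which exchanges the acyl chain for an alkyl chain in the second step, was at 34.5, 31.6 and 36.2 CPM in WT and 38.6, 42.6 and 59.2 CPM in sST2-KO, a log2 fold change of 0.46 ± 0.21 (SE, adjusted p = 0.15). Far1, the reductase that supplies the fatty alcohol and limits the rate of plasmalogen synthesis, was at 27.8, 12.8 and 17.8 CPM in WT and 30.7, 33.7 and 41.97 CPM in sST2-KO, a log2 fold change of 0.86 ± 0.30 (SE, adjusted p = 0.079). Neither Agps nor Far1 was called, while in both genes every sST2-KO library lay above every WT library and sST2-KO replicate 3 was the highest. Without that library the log2 fold changes were 0.25 for Agps and 0.72 for Far1, and without WT replicate 1 Far1 was called higher (adjusted p = 0.034). The count of Agps per count of Gnpat was 0.174, 0.129 and 0.128 in WT and 0.299, 0.327 and 0.756 in sST2-KO. The macrophage, muscle and fibroblast genes were highest in sST2-KO replicate 3 too, and the fibroblast genes were next highest in WT replicate 1. The part of these cells in the levels of Agps, Far1 and Abcd2 was not tested. Gnpat was chosen as the reference for these ratios after the values were seen.

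**Figure D4:**
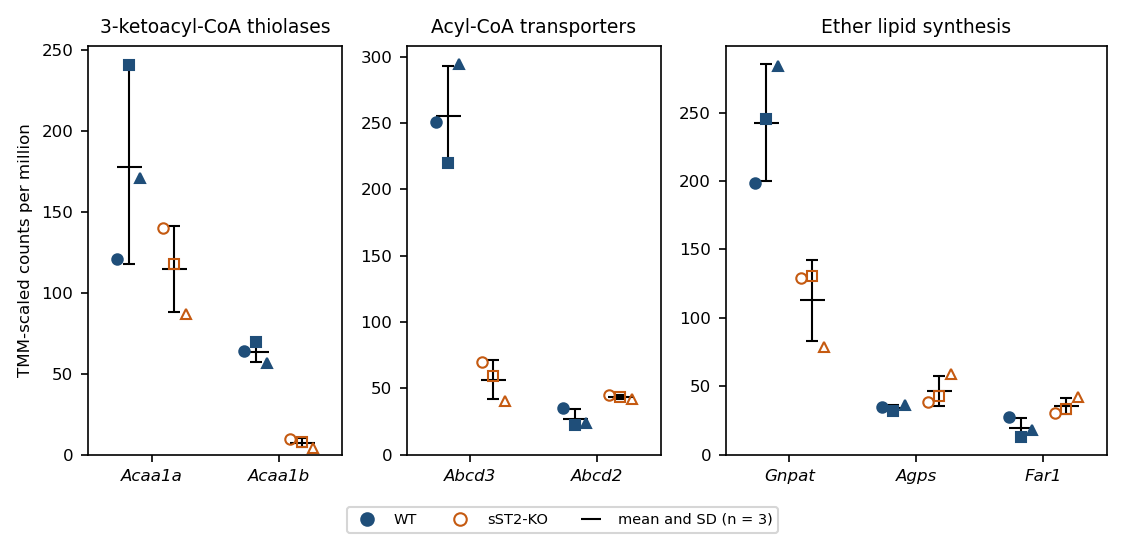
TMM-scaled CPM (linear axes from 0, one scale per panel) of the thiolases, the acyl-CoA transporters and the enzymes of ether lipid synthesis in WT (filled) and sST2-KO (open) libraries, with marker shapes for replicates 1 (circle), 2 (square) and 3 (triangle) and bars for the mean and SD (n = 3). Acaa1b, Abcd3 and Gnpat are lower in every sST2-KO library, whereas Abcd2, Agps and Far1 are higher in every one and Acaa1a overlaps.

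In alpha-oxidation and the handling of branched chains, 2 of 3 genes were called lower. Hacl1, the lyase that removes a carbon from hydroxylated phytanoyl-CoA, was at 38.8, 50.8 and 50.9 CPM in WT and 11.6, 19.1 and 12.05 CPM in sST2-KO, a log2 fold change of -1.72 ± 0.25 (SE, adjusted p = 0.014). Of its 150-base transcript windows, 14.9% also belong to the overlapping gene model Gm49387, and reads there cannot be assigned to either. Amacr, the racemase that prepares branched acyl-CoAs for beta-oxidation, was at 25.6, 27.1 and 27.9 CPM in WT and 9.76, 10.4 and 7.702 CPM in sST2-KO, a log2 fold change of -1.53 ± 0.20 (SE, adjusted p = 0.012). The libraries of each group lay close together for Amacr. Phyh, the hydroxylase that starts alpha-oxidation, was at 421, 586 and 637 CPM in WT and 299.7, 288 and 102 CPM in sST2-KO, a log2 fold change of -1.25 ± 0.42 (SE, adjusted p = 0.073). It was 2.39-fold lower without overlap but varied among sST2-KO libraries, with replicate 3 far below the others, and DESeq2 gave it an adjusted p of 0.013.

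Of 6 genes for carnitine esters and CoA, 4 were called lower. Crat, the carnitine acetyltransferase of peroxisomes and mitochondria, was at 646, 884 and 904 CPM in WT and 269, 238 and 136 CPM in sST2-KO, a log2 fold change of -1.92 ± 0.32 (SE, adjusted p = 0.015). Crot, which makes carnitine esters of the medium chains that leave the peroxisome, was at 30.6, 58.2 and 24.3 CPM in WT and 30.1, 26.3 and 26.8 CPM in sST2-KO, a log2 fold change of -0.44 ± 0.32 (SE, adjusted p = 0.36). The groups overlapped for Crot, and its only high value came from WT replicate 2, without which the log2 fold change was 0.01. Nudt7, a hydrolase that degrades CoA, was at 88.1, 48.1 and 126 CPM in WT and 24.1, 28.2 and 9.87 CPM in sST2-KO, a log2 fold change of -2.07 ± 0.47 (SE, adjusted p = 0.025). Nudt19, a hydrolase of the same kind, had a log2 fold change of -0.46 ± 0.20 (SE, adjusted p = 0.14), with its sST2-KO libraries below its WT libraries. Of the called genes, Nudt7, Pex3, Ehhadh and Abcd3 had their lowest WT level in replicate 2, the library with the liver genes.

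The thioesterases, which free CoA from acyl chains, were both called lower. Acot4, which acts on dicarboxylic acyl-CoAs, was at 17.3, 29.7 and 28.4 CPM in WT and 8.78, 9.49 and 4.84 CPM in sST2-KO, a log2 fold change of -1.70 ± 0.34 (SE, adjusted p = 0.019). Acot8, a thioesterase of broad range, was at 26.03, 29.97 and 54.1 CPM in WT and 14.5, 17.2 and 14.5 CPM in sST2-KO, a log2 fold change of -1.25 ± 0.30 (SE, adjusted p = 0.029). In Acot8 WT replicate 3 stood apart from the other WT libraries. Exons of Acot8 also overlap those of Snx21 and Zswim3 on the opposite strand over 4158 bases, so reads there cannot be assigned. Such overlaps exist for 27 of the 36 genes and exceed 10% of the exon length in 11. Their share is 49.4% in Acot8, 44.9% in Pex11g, 42.7% in Pecr, 27.02% in Nudt19, 25.5% in Pex14 and 24.4% in Crat, and at most 15.1% in the others. The part of these overlaps in the levels was not tested. Lonp2, the protease and chaperone of the matrix, was at 146, 166 and 210.2 CPM in WT and 80.3, 92.2 and 56.2 CPM in sST2-KO, a log2 fold change of -1.19 ± 0.25 (SE, adjusted p = 0.021). All 3 genes were lower in each sST2-KO library than in any WT library.

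Other genes of the organelle were mostly lower too. Of a further 32 peroxisomal genes, 25 passed the filter on low counts, of which 14 were called lower (56.0%, against 9.10% of all genes tested) and 0 higher (against 10.5%), at a median log2 fold change of -1.25. At an unadjusted p under 0.05 in edgeR, 18 of the 25 were lower and 0 higher, against 16.7% and 19.6% of all genes tested. The largest falls were in Acot5, Slc27a2 and Acad11. Acot5, another thioesterase, fell from 4.76, 16.02 and 5.92 to 0.209, 0.356 and 0.296 CPM (adjusted p = 0.012), with 3 counts in each sST2-KO library, so that its fitted fold change depends on the prior count and is not given. Slc27a2, the very-long-chain acyl-CoA synthetase, fell from 402, 421 and 712 to 43.98, 57.1 and 14.3 CPM (log2 fold change -3.73 ± 0.54 SE, adjusted p = 0.014). Acad11, an acyl-CoA dehydrogenase, fell from 166, 209 and 200 to 62.9, 62.3 and 23.6 CPM (log2 fold change -1.95 ± 0.37 SE, adjusted p = 0.018). Without WT replicate 2, WT replicate 3 or sST2-KO replicate 3, the calls among these genes numbered 6, 1 and 9. Of 18 genes of mitochondrial fatty acid oxidation, 15 were called lower (83.3%, against 9.10% of all genes tested), and the median log2 fold change was -2.13. Whether they fell more than the peroxisomal genes was not tested.

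Among 11 transcription factors and coactivators that act on peroxisomal or mitochondrial genes, 3 were called lower (27.3%, against 9.10% of all genes tested) and 0 higher. At an unadjusted p under 0.05 in edgeR, 5 were lower and 0 higher, against 16.7% and 19.6% of all genes tested. Ppargc1a, the coactivator PGC-1alpha, fell from 149.9, 252 and 171 to 20.4, 59.2 and 45.1 CPM (log2 fold change -2.20 ± 0.41 SE, adjusted p = 0.017). Esrra, the estrogen-related receptor alpha, fell from 126, 114 and 172 to 36.5, 40.5 and 42.95 CPM (log2 fold change -1.78 ± 0.21 SE, adjusted p = 0.010). Rxrb, a partner receptor of the PPARs, fell from 57, 65.6 and 63.4 to 46.8, 36.4 and 33.9 CPM (log2 fold change -0.67 ± 0.18 SE, adjusted p = 0.043). With a library left out, the call of Esrra held in 6 of 6 fits. That of Ppargc1a held in 4 and was lost without WT replicate 2 and without WT replicate 3, and that of Rxrb held in 1, the fit without sST2-KO replicate 1. Rxrb had an adjusted p of 0.17 with total counts, and with the replicate block the adjusted p was 0.10 for Rxrb and 0.064 for both Esrra and Ppargc1a. Ppara, the receptor under which peroxisomal beta-oxidation genes are induced in liver, was at 211, 181 and 146 CPM in WT and 66.1, 161 and 27.1 CPM in sST2-KO and was not called (log2 fold change -1.08 ± 0.56 SE, adjusted p = 0.21), with sST2-KO replicate 2 within the WT range.

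Markers of several cell types differed between the groups as well. The calls below stand against 9.10% of all genes tested called lower and 10.5% called higher. All 8 brown adipocyte genes were called lower (median log2 fold change -3.25), and their summed level was 8714, 10743 and 16736 CPM in WT and 613, 1932 and 336 CPM in sST2-KO. Of 10 genes of adipocytes in general, 2 were called lower, with a median of -0.92 and a range from -1.70 to 3.27. The 10 genes summed to 26965, 23944 and 29288 CPM in WT and 14511, 14037 and 8354 CPM in sST2-KO, without overlap. At an unadjusted p under 0.05 in edgeR, 6 were lower and 1 was higher, against 16.7% and 19.6% of all genes tested. Adipoq, the adipocyte hormone adiponectin and a called gene, fell from 1043, 1227 and 1509 to 517, 703 and 375 CPM (log2 fold change -1.24 ± 0.31 SE, adjusted p = 0.033). Of 8 T cell genes, 7 were called higher, with Cd3e, a T cell receptor subunit, at 1.21, 2.26 and 1.85 CPM in WT and 9.34, 13.2 and 16.4 CPM in sST2-KO. Of 10 macrophage genes, 2 were called higher, with a median of 1.26 and a range from -1.26 to 2.67. At an unadjusted p under 0.05 in edgeR, 1 was lower and 5 were higher, against 16.7% and 19.6% of all genes tested. Without sST2-KO replicate 3 the median was 0.47. Adgre1, which encodes F4/80, was at 29.9, 35.9 and 20.96 CPM in WT and 77.6, 37.97 and 244 CPM in sST2-KO. Of 12 skeletal muscle genes, 2 were called higher, at a median log2 fold change of 4.13. For all 12, every sST2-KO library was above every WT library, against 21.8% of all genes tested. At an unadjusted p under 0.05 in edgeR, 10 of the 12 were higher, against 19.6% of all genes tested. Acta1, the muscle actin, was at 388, 5.65 and 0.7397 CPM in WT and 1813, 1042 and 3906 CPM in sST2-KO. All 5 erythrocyte genes were called lower, with sums of 484, 904 and 1584 CPM in WT and 107, 18.9 and 11.1 CPM in sST2-KO. Among 16 hepatocyte genes, 11 did not pass the filter on low counts, which asks for counts in several libraries. They summed to 2265 CPM in WT replicate 2 and to at most 16.5 CPM elsewhere. Of the 5 tested, 3 were called lower, at a median of -2.21, or -1.45 without WT replicate 2. Summed over all 16 genes, the level was 9642, 21760 and 11600 CPM in WT and 13185, 8626 and 5203 CPM in sST2-KO. In WT replicates 1 and 3, where Alb was low, nearly all of it came from tested genes other than Alb. These calls therefore do not measure liver cells. The part of these differences in the fall of the peroxisomal genes was not tested.

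**Figure D5:**
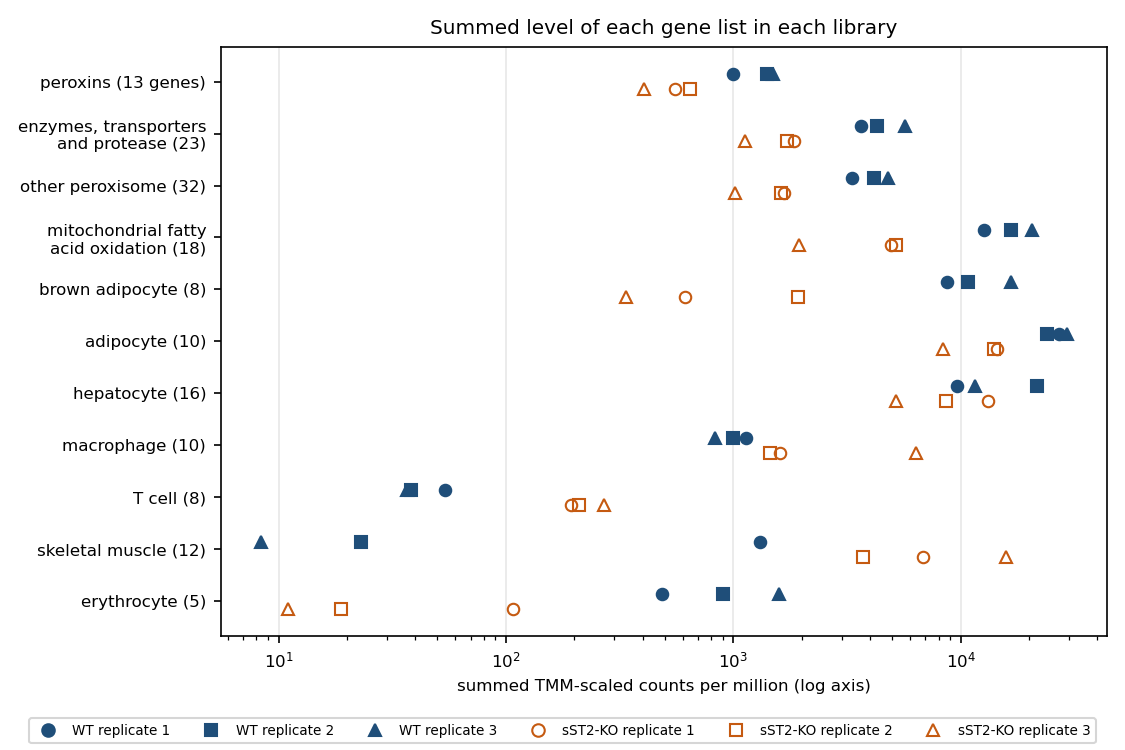
Summed TMM-scaled CPM (log axis) of the peroxins, the 23 other genes and lists of related and marker genes in each library. The peroxisomal sums of sST2-KO (open) all lie below those of WT (filled). So do the sums of mitochondrial fatty acid oxidation, brown adipocyte, general adipocyte and erythrocyte genes. The macrophage, T cell and muscle sums lie above, and the hepatocyte sums overlap.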

How the data were processed

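RNA from BAT was poly-A selected, made into libraries with a kit that does not mark strand and sequenced as 150 bp paired-end reads. The authors aligned the reads to mm39 with HISAT2 (2.2.1 in the submitters' processing notes, with FastQC 0.12.1) and counted them on genes with htseq-count, whose version, annotation and strand setting are not given in the sources used here. The deposited values are raw counts per gene symbol. Of the 35976 rows, 11377 had no count.

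Counts were analyzed with edgeR 4.0.16 in R 4.3.3 (filterByExpr, TMM, quasi-likelihood test, no covariate, Benjamini-Hochberg adjustment over 14542 genes). Simulated data were used to test the steps. The SE is the log2 fold change divided by the square root of F. DESeq2 1.42.0, the tool of the study, RLE factors, a 2-fold minimum, scaling by total counts, a filter of 10 counts in every library or none, the replicate number as a block and each library left out were the alternatives. Depth, at 8159442 to 12874809 counts per library, and 3 mice per group limit the precision. The 36 genes, their roles and the other gene lists were chosen with earlier results of these data known. Values are given per library for genes that were called, changed over 2-fold or were high in a library with other tissue, and, after their values were seen, for Abcd2, Agps and Far1. The marker lists covered 10 cell types, of which endothelial cells (1 gene lower and 1 higher of 6), fibroblasts (0 of 6, also at an unadjusted p under 0.05 in edgeR) and neurons and Schwann cells (1 lower of 3 tested) have their calls given here only. Positions and exon lengths are from GENCODE M39 on GRCm39.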

Additional observations from a re-analysis of the deposited data

How the results depend on the processing

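The counts of genes called lower (23 of the 36, 9 peroxins, 14 others and 14 further peroxisomal genes) stayed within 1.5 times under RLE factors, DESeq2, the 2-fold minimum, scaling by total counts, no filter and a filter of 10 counts in every library. With the replicate number as a block, which does not pair the mice by the correlations of same-numbered libraries (-0.06, 0.21 and -0.31), all 4 counts of calls were 0, as were the calls over all genes. In the block fit 26 of the 36 genes were lower at an unadjusted p under 0.05 in edgeR, and the share of all genes at that level was not computed. With a library left out, the calls ranged from 1 to 23 for the 36 genes, from 0 to 10 for the peroxins, from 1 to 13 for the others and from 1 to 13 for the further peroxisomal genes, with the lowest values without WT replicate 3 and the next lowest (12, 3, 9 and 6) without WT replicate 2. Calls higher in sST2-KO ranged from 0 to 2, and total counts gave 1, Abcd2. Total counts also moved the median of all genes from 0.03 to 0.29 on the log2 scale, and the medians of the peroxins and of the others to -1.02 and -0.99, which relative to that shift leaves both near their main values. The medians ranged from -1.45 to -1.04 for the peroxins and from -1.49 to -1.20 for the others with a library left out. The log2 fold change of Pex26 ranged from -0.025 (without WT replicate 3) to 0.43 and that of Crot from -0.68 to 0.013 (without WT replicate 2), and no other log2 fold change of the 36 genes changed sign under these alternatives. DESeq2 also called Pex5, Phyh and Pecr. The cause of these changes was not tested.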

Other observations

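Among the 32 other peroxisomal genes, 7 did not pass the filter on low counts, which asks for counts in several libraries. Of these, 6 were highest in WT replicate 2, including Dao at 3 counts, and Hao2 had no count in any library. Pipox, which oxidizes pipecolic acid, was at 0.187, 10.4 and 0.123 CPM in WT and 0.418, 0.237 and 0.197 CPM in sST2-KO. Acox2, the oxidase for bile acid intermediates, was at 0.653, 12.5 and 0 CPM in WT and 0.418, 0.119 and 0.79 CPM in sST2-KO. Hao1, a hydroxyacid oxidase of liver, was at 4.43 CPM in WT replicate 2, and Acot12, a thioesterase, was at 6.41 CPM there, and both were at 0.7397 CPM or less in the other 5 libraries. Acot3 was at 3.77 CPM in that library and at 0.296 to 1.67 CPM elsewhere. Alb stood at 3192 CPM in the same library. The choice of these genes followed their values, and no explanation was tested.

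The genes that divide peroxisomes and mitochondria alike were not called. Fis1, the membrane adaptor, had a log2 fold change of 0.20 ± 0.19 (SE, adjusted p = 0.49), Mff, another adaptor, one of -0.54 ± 0.19 (adjusted p = 0.083), and Dnm1l, the dynamin that cuts the membrane, one of -0.34 ± 0.19 (adjusted p = 0.25), all by edgeR's quasi-likelihood test. Fis1 was at 62.6, 73.5 and 80.3 CPM in WT and 77.9, 74.4 and 95.6 CPM in sST2-KO, so the groups overlapped. Whether these genes differ from Pex11a and Pex11g was not tested, and they too were picked after their values were seen.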
